A study of Mus musculus with 2 samples.

Results

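The 10 genes described here encode the regulators that are best known for setting the number and activity of mitochondria in a cell: the coactivators Ppargc1a and Ppargc1b, the estrogen-related receptors Esrra, Esrrb and Esrrg, the peroxisome proliferator-activated receptors Ppara, Ppard and Pparg, and the factors Nrf1 and Tfam. They were chosen by name, not by a cut-off on their values, though earlier results of these data were known. All 10 were found among the 55536 genes of the deposited table. They were measured in polyA-selected RNA of the mouse heart at embryonic day 12.5, in 2 libraries of a single group, called replicate 2 and replicate 1. Both come from embryos of the strain B6NCrl, with males and females pooled, and the labels name no mutation and no treatment. Each library was made from 10 ng of RNA with an oligo-dT primed kit, was fragmented by Nextera tagmentation and carried ERCC spike-in RNAs at 1000 times the single-cell amount. The replicates are separate biosamples with 1 donor identifier, so every spread and p-value here concerns these 2 samples.

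The PGC1 coactivators do not bind DNA themselves. They dock on nuclear receptors, chiefly the ERR and PPAR families, and raise transcription of genes for fatty acid oxidation, the respiratory chain and mitochondrial upkeep. NRF1 activates many nuclear genes of the respiratory chain and also the gene Tfam, whose product coats mitochondrial DNA and starts its transcription. In the heart these factors are known for the build-up of oxidative metabolism in late gestation and after birth.

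The libraries held 31394912 estimated reads on genes in replicate 2 and 34248993 in replicate 1, and spike-ins took 3.63% of all estimated reads in replicate 2 and 3.58% in replicate 1. Counts of the libraries differed by more than sampling noise (chi-square per degree of freedom of 4.01 over 20136 genes), so they were kept as separate samples. Cardiomyocyte markers were high in both libraries, led by Actc1, Myh7 and Tnnt2, and all 6 passed 1 TPM. Red cell transcripts were abundant, with Hbb-y at 24335 TPM in replicate 2 and 27402 in replicate 1. The 7 hepatocyte markers (Afp, Apoa2, Apoa1, Alb, Ttr, Serpina1a and Fgb) were lower in replicate 2, at a summed 36.6 TPM, than in replicate 1, at 171 TPM. In whole hearts, fewer cells of a type and less RNA per cell cannot be told apart. Whether the hepatocyte marker transcripts came from cells of the heart at all was not tested.

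TPM, the abundance unit of the deposited tables, is a level per unit of transcript length and allows genes to be compared within a library. Of the 10 genes, 9 reached 1 TPM in both libraries, against 56.6% of protein-coding genes, and Ppard missed it in replicate 2. The levels fell into a group of 6 genes between 12.8 and 49.9 TPM and a group of 4 genes between 0.83 and 2.72 TPM, with Ppargc1b, the lowest of the first group, at 5.39 times the mean of Esrrb, the highest of the second. The order of the means was Tfam, Ppargc1a, Nrf1, Esrrg, Esrra, Ppargc1b, Esrrb, Ppara, Pparg and Ppard. The ranges over the libraries overlapped for Nrf1 and Esrrg, for Esrrb and Ppara, and for Pparg and Ppard, so these neighbours do not differ beyond the spread between libraries. By deposited TPM, within each library Esrrb was above Ppara and Pparg above Ppard. Nrf1 was below Esrrg in replicate 2 and above it in replicate 1. The authors' posterior mean TPM reversed the order of Esrrb and Ppara. Esrrb had 2.42 in replicate 2 and 2.88 in replicate 1, and Ppara 2.56 in replicate 2 and 3.24 in replicate 1. In replicate 2 the posterior mean also put Nrf1, at 29.88, above Esrrg, at 29.85. The first 5 genes of the order lay above 19.1 TPM, the median of protein-coding genes detected in both libraries.

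**Figure D1:**
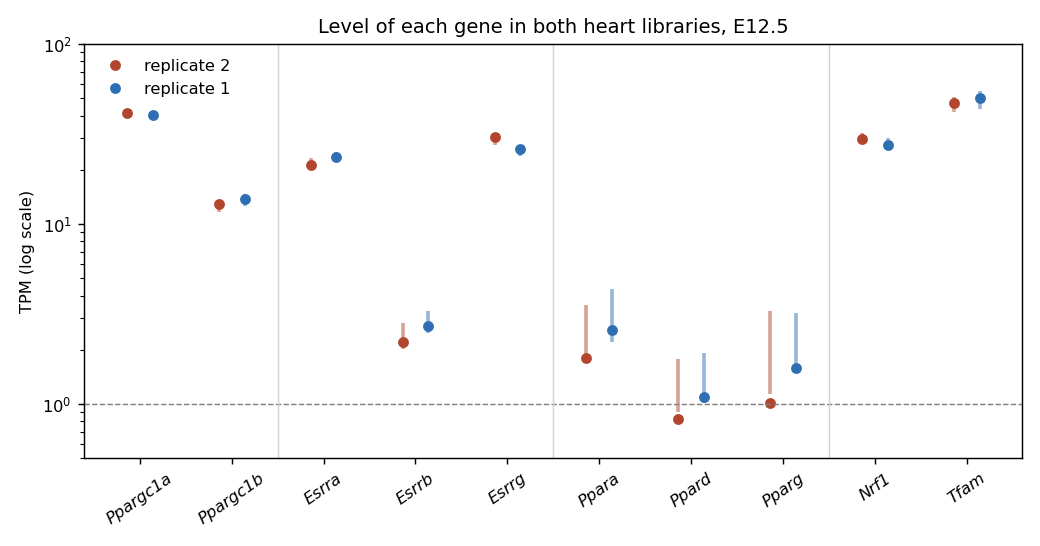
TPM of the 10 genes on a log axis, with replicate 2 left of replicate 1 for each gene; points are the deposited TPM, vertical bars the authors' deposited interval, and the dashed line 1 TPM. Tfam and Ppargc1a are the highest, Esrrb and the 3 PPAR genes lie between 0.83 and 2.72 TPM, and the intervals of Ppard and Pparg in replicate 2 lie above their points.

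Ppargc1a, the gene of PGC1 alpha, was the more abundant coactivator. It had 41.6 TPM in replicate 2 and 40.3 in replicate 1 (mean 41.0 ± 0.912, SD, n = 2), from 3367 reads in replicate 2 and 3551 reads in replicate 1, and stood above 71.8% of detected protein-coding genes. Ppargc1b, the gene of PGC1 beta, had 12.8 TPM in replicate 2 and 13.7 in replicate 1 (mean 13.3 ± 0.622, SD, n = 2). The log2 ratio of Ppargc1a over Ppargc1b was 1.70 in replicate 2 and 1.56 in replicate 1, a mean ratio of 3.09 in favour of Ppargc1a in level per length. Of 3 brown fat markers, 2 were detected: Prdm16 had 17.9 TPM in replicate 2 and 17.1 in replicate 1, and Cidea had 1.06 TPM in replicate 2 and 1.36 in replicate 1. Ucp1, the uncoupling protein of brown fat and a classical target of PGC1 alpha in that tissue, was at 0 TPM in both.

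The transcript estimates divided Ppargc1a (mm10, chr5:51454250-51567726, minus strand) in a way the gene total does not show. The authors' estimates gave 57.0 ± 1.69% of its TPM (SD, n = 2) to Ppargc1a-201, which the annotation classes as a target of nonsense-mediated decay, and 22.5 ± 1.03% to Ppargc1a-203 with the full coding sequence. Ppargc1a-205, with 2088 coding bases, held 18.1 ± 0.926%. The forms Ppargc1a-201 and Ppargc1a-203 share their coding sequence up to a splice site at which Ppargc1a-201 keeps 31 further bases, at chr5:51490091-51490121. The junction is shown because those bases carry a stop codon after their first 10 bases; capitals mark the 31 bases kept in Ppargc1a-201, and both lines come from the GENCODE M21 transcripts.
Ppargc1a-201: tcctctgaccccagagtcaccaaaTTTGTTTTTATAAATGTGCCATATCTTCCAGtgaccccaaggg
Ppargc1a-203: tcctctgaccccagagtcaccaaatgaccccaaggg
The reading frame is 270 codons in Ppargc1a-201 and 797 codons in Ppargc1a-203. A shortened protein that keeps the amino-terminal part, NT-PGC1 alpha, is known in mouse tissues.

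In reads, Ppargc1a-201 held 1525 of the gene's reads in replicate 2 and 1704 in replicate 1, and Ppargc1a-203 held 1372 in replicate 2 and 1377 in replicate 1. The share of reads was thus 46.6 ± 1.90% for Ppargc1a-201 and 39.8 ± 1.40% for Ppargc1a-203 (SD, n = 2), a smaller gap than in TPM, which divides reads by length. Ppargc1a-201 is 3041 bases long and Ppargc1a-203 is 6464 bases long. The authors' posterior SD of the Ppargc1a-201 count, the uncertainty from dividing reads among similar transcripts, was 76.8 reads in replicate 2 and 76.9 reads in replicate 1. The tables do not give the number of reads across the junction itself, and with the older M4 annotation the TPM share of Ppargc1a-201 was 66.7%.

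Ppargc1a transcripts start at a proximal site and, further upstream, at a distal site known in mouse skeletal muscle for its response to exercise and to adrenergic signals. The 3 transcripts of the proximal site held 99.8% of the reads in replicate 2 and 99.7% in replicate 1. The distal site held 8.16 reads in replicate 2 and 10.2 reads in replicate 1. In TPM its share was 2.26% in replicate 2 and 2.64% in replicate 1. Its form Ppargc1a-204 was given 0 reads in both, with posterior SDs of 15.6 reads in replicate 2 and 8.5 in replicate 1. Neither annotated distal form carries the full coding sequence, and reads in exons shared with proximal forms do not tell the start. Thus these shares do not settle how much each start was used. Ppargc1b had a single start region, and Ppargc1b-202, with 3042 coding bases, took 99.6 ± 0.100% of its reads (SD, n = 2).

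Among the ERR genes, which encode orphan receptors that bind the same short DNA element and take PGC1 proteins as coactivators, Esrrg and Esrra were expressed and Esrrb was low. Esrrg had 30.6 TPM in replicate 2 and 26.1 in replicate 1 (mean 28.3 ± 3.22, SD, n = 2). Esrra (mm10, chr19:6910977-6921813, minus strand) had 21.4 TPM in replicate 2 and 23.6 in replicate 1 (mean 22.5 ± 1.60, SD, n = 2). Esrrb (chr12:86361117-86521628, plus strand), also known as a factor of pluripotent stem cells, had 2.21 TPM in replicate 2 and 2.72 in replicate 1 (mean 2.47 ± 0.361, SD, n = 2).

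The 3 genes summed to 54.2 TPM in replicate 2 and 52.4 in replicate 1, beside sums for the PGC1 genes of 54.5 TPM in replicate 2 and 54.1 in replicate 1. Esrra was below Esrrg in both libraries, by a log2 ratio of -0.52 in replicate 2 and -0.14 in replicate 1. Esrra was above Esrrb by 3.27 in replicate 2 and 3.12 in replicate 1 on the log2 scale, a mean ratio of 9.16. Of the 4 pluripotent cell markers, none reached 1 TPM in both libraries: Pou5f1 was at 0 TPM in both, and Nanog at 0.67 TPM in replicate 2 and 0.38 in replicate 1.

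The estimated reads of Esrrg (mm10, chr1:187608791-188214885, plus strand) were divided very unequally between transcripts of its start sites. Esrrg-201 and Esrrg-202, from the downstream site at 187997827, held 93.8% of the gene's reads in replicate 2 and 94.0% in replicate 1. Esrrg-201 adds 69 coding bases at the start of the frame, for 458 codons against 435 codons in Esrrg-203, which starts upstream. Those bases are shown with the first bases of the shorter frame, with the start codon in capitals, from the GENCODE M21 transcripts.
Esrrg-201: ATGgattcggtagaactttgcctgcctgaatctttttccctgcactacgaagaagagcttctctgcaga
Esrrg-203: ATGtcaaacaaagatcgacacattgattcc
In TPM, which divides reads by length, the upstream site had a larger share, at 32.7% in replicate 2 and 25.6% in replicate 1. Of its transcripts, 2 are short. Reads in exons shared with the downstream forms do not tell the start. Esrrg-203 had 78.7 reads in replicate 2 and 104 in replicate 1, with posterior SDs of 35.2 in replicate 2 and 32.4 in replicate 1. Thus these shares do not settle how much each start of Esrrg was used. Esrrg-205, a non-coding form of 507 bases, had 47 reads in replicate 2 and 41 reads in replicate 1, which is 1.70 ± 0.208% of reads but 16.2 ± 0.877% of TPM. Esrrg-204, of 450 bases, had 32.2 reads in replicate 2 and 14.96 reads in replicate 1, and its share of TPM was 13.4% in replicate 2 and 6.62% in replicate 1. The effective length of Esrrg, by which reads are divided, was 3727 bases in replicate 2 and 4110.5 bases in replicate 1, so its TPM differed more between the libraries than its counts did.

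The RefSeq bases before the downstream start (GRCm38.p6, the mm10 assembly, plus strand, no annotated exon) are shown because most estimated Esrrg reads were assigned to its transcripts. In capitals are matches on either strand to 6 motifs, each searched in all promoter windows: AAGGTCA (ERR), AGGTCANAGGTCA (PPAR with RXR), GCGCATGCGC (NRF1), CCGGAAG (ETS factors, GABP included), TGACGTCA (cyclic AMP response) and GGGCGG (SP1).
Esrrg downstream start, chr1:187997577-187997826: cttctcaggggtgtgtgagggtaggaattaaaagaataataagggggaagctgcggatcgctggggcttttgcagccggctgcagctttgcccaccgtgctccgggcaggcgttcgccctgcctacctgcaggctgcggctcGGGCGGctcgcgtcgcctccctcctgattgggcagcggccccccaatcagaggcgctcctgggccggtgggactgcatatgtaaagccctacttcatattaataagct
It holds GGGCGG, with its first base at position -108 from the start, a motif in 35.7% of 32851 windows of all genes (250 bases before and 50 bases after each start). The window at the upstream start holds none of the 6 motifs. A further RefSeq window between the upstream and downstream starts, at chr1:187651991-187652240, holds GGGCGG at positions -199 and -188 from its own start. A match describes the letters only.

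Esrrb had 89.8 ± 6.06% of its TPM (SD, n = 2) in Esrrb-204, from the most upstream start, with 195 reads in replicate 2 and 242 reads in replicate 1. Esrrb-203 had 0 reads in replicate 2 and 18.9 reads in replicate 1, with posterior SDs of 8.87 reads in replicate 2 and 15.1 reads in replicate 1. Esrra was mostly Esrra-201, the coding form, at 78.9 ± 3.75% of TPM (SD, n = 2), beside 15.8 ± 1.98% in Esrra-202, which retains an intron. Esrra shares 73 exon bases with Trmt112 on the opposite strand, and whether counting used strand is not given in the sources used here, so reads in those bases could come from either gene. Trmt112 was at 66.9 TPM in replicate 2 and 72.8 in replicate 1.

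**Figure D2:**
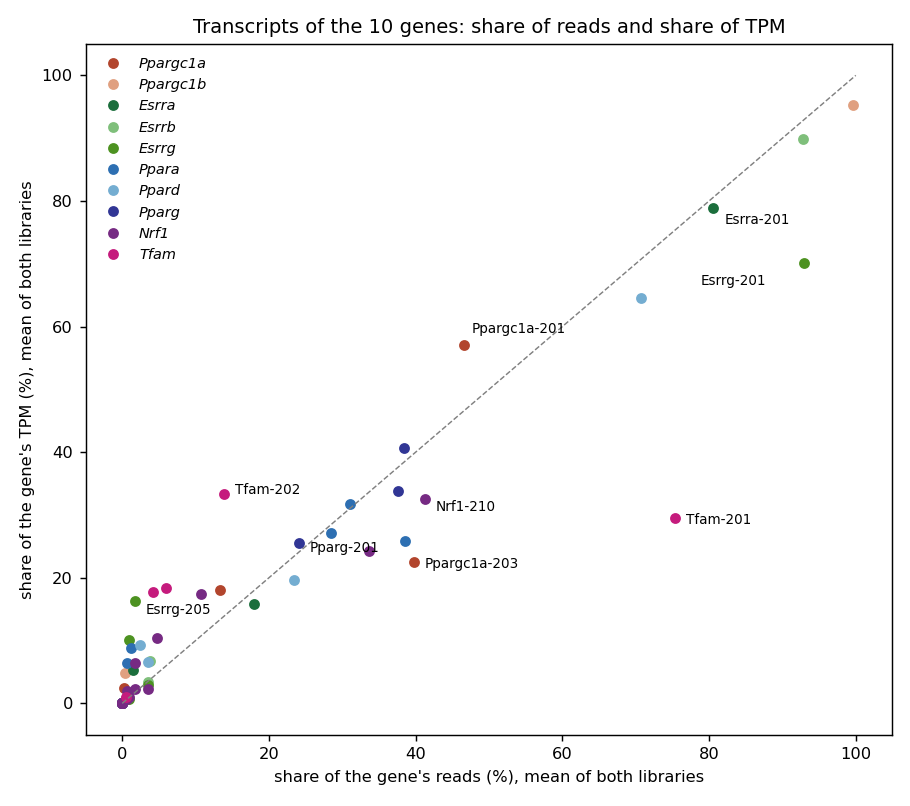
Each point is 1 of the 71 annotated transcripts of the 10 genes, with its mean share of the gene's reads on the horizontal axis and its mean share of the gene's TPM on the vertical axis, both in percent and over both libraries; the dashed line marks equal shares. Short forms such as Esrrg-205 (1.70% of reads, 16.2% of TPM) lie above the line, and the long forms Tfam-201 and Ppargc1a-203 lie below it.

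The PPAR genes encode receptors for fatty acids and their derivatives, which pair with retinoid X receptors on DNA. All 3 were low and summed to 3.65 TPM in replicate 2 and 5.26 in replicate 1. Ppara (chr15:85734983-85802819, plus strand), the form known for fatty acid oxidation in liver and adult heart, had 1.81 TPM in replicate 2 and 2.58 in replicate 1 (mean 2.195 ± 0.544, SD, n = 2; 97 reads in replicate 2, 124 in replicate 1). Pparg, the form known for fat cells and macrophages, had 1.01 TPM in replicate 2 and 1.58 in replicate 1 (mean 1.30 ± 0.403, SD, n = 2; 42 reads in replicate 2, 69 in replicate 1). Ppard (mm10, chr17:28232700-28301474, plus strand), known as broadly expressed, had 0.83 TPM in replicate 2 and 1.10 in replicate 1 (mean 0.965 ± 0.191, SD, n = 2; 61 reads in replicate 2, 68 in replicate 1). Its coding form Ppard-201 had 0.59 TPM in replicate 2 and 0.63 in replicate 1. Forms with a retained intron held 28.4% of the Ppard TPM in replicate 2 and 42.6% in replicate 1. The effective length of Ppard was 3305 bases in replicate 2 and 2514 bases in replicate 1. Its TPM therefore differed more between the libraries than its counts did, and its miss of 1 TPM in replicate 2 depends on that estimate.

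Ppard was below Ppara in both libraries, with a log2 ratio of -1.12 in replicate 2 and -1.23 in replicate 1. It was also below Pparg, by -0.28 in replicate 2 and -0.52 in replicate 1 on the log2 scale, a mean of -0.40 ± 0.17 (SD, n = 2), although across libraries the 2 genes' ranges overlapped. At these depths the levels depend on how abundance is estimated: the authors' posterior mean of Pparg was 2.07 TPM in replicate 2 and 2.31 in replicate 1, and that of Ppard was 1.31 TPM in replicate 2 and 1.45 in replicate 1. The deposited interval for Ppard in replicate 2, 0.906 to 1.77 TPM, lies above the deposited TPM itself, as does that for Pparg in replicate 2, 1.13 to 3.27 TPM.

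Markers of tissues in which these receptors are known were checked beside them. None of 5 white fat markers reached 1 TPM, with a summed level of 0.09 TPM in replicate 2 and 0.14 in replicate 1, and Cidec was at 0 in both. All 5 macrophage markers were above 1 TPM, with a summed level of 102 TPM in replicate 2 and 96.4 in replicate 1, led by Lyz2, C1qb and Csf1r. The part of the hepatocyte markers, whose values are given above, in the Ppara level was not tested.

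For Pparg (mm10, chr6:115360951-115490399, plus strand) the libraries differed in the estimate for Pparg-201. The ranges of 2 posterior SDs around each count still met, though only just. Pparg-201, the form with the longer frame that is known from fat tissue as Pparg2, was given 0 reads in replicate 2 and 33.2 reads in replicate 1. The posterior SDs of those counts were 6.0 reads in replicate 2 and 11.1 reads in replicate 1. Pparg-204 had 22.2 reads in replicate 2 and 16.6 reads in replicate 1, and Pparg-202 had 19.8 in replicate 2 and 19.2 in replicate 1. The 90 coding bases that Pparg-201 adds before the frame shared by Pparg-202 and Pparg-204 are shown with the start of the shared frame, with the start codons in capitals, from the GENCODE M21 transcripts.
Pparg-201: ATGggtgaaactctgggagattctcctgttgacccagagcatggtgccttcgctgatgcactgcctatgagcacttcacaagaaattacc
Pparg-204: ATGgttgacacagagatgccattctggccc
The frames have 505 codons in Pparg-201 and 475 codons in Pparg-204. The RefSeq bases (GRCm38.p6, plus strand) before both starts, without annotated exons and with motif matches in capitals as above, are shown for contrast.
Pparg-201 start, chr6:115421816-115422065: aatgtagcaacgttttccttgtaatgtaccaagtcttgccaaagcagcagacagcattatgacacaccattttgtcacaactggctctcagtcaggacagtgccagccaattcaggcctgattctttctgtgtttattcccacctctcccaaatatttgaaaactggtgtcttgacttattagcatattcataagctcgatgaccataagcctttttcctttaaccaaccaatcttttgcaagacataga
Pparg-204 start, chr6:115362099-115362291: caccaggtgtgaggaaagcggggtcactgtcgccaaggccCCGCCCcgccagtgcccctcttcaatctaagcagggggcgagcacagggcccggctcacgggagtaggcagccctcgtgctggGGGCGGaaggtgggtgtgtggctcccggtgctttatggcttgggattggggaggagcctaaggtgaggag
The window at the Pparg-201 start, its 50 bases after the start included, has 40.3% G and C and none of the 6 motifs. The window at the Pparg-204 start has 62.7% G and C and GGGCGG at positions -210 and -127 from the RefSeq start. The median over all windows is 52.7%.

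Ppara transcripts Ppara-201, Ppara-202 and Ppara-203 carry the same length of coding sequence, 1404 bases, and differ at their ends. Ppara-201 had 7.21 reads in replicate 2 and 67.8 reads in replicate 1, so its TPM share was 9.10% in replicate 2 and 54.3% in replicate 1. Ppara-203 had 42.5 reads in replicate 2 and 16.4 reads in replicate 1. The stretch before the RefSeq start of Ppara, free of annotated exons, is shown because it holds the single NRF1 motif of the 16 windows found for 9 of the 10 genes (GRCm38.p6, plus strand, motif in capitals).
Ppara start, chr15:85735714-85735775: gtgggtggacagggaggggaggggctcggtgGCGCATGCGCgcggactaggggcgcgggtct
GCGCATGCGC begins at position -31 there and reads the same way on both strands; 0.971% of all windows hold it. Neither the ERR motif (4.72% of all windows) nor the PPAR motif (0.0396%) nor the cyclic AMP response motif (1.79%) was found in any of the 16 windows.

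Nrf1 and Tfam were among the highest of the 10 genes. Nrf1 (mm10, chr6:30047988-30153458, plus strand) had 29.6 TPM in replicate 2 and 27.4 in replicate 1 (mean 28.5 ± 1.56, SD, n = 2). Tfam (chr10:71225464-71238280, minus strand) had 46.7 TPM in replicate 2 and 49.9 in replicate 1 (mean 48.3 ± 2.22, SD, n = 2), above 75.9% of detected protein-coding genes. The log2 ratio of Tfam over Nrf1 was 0.66 in replicate 2 and 0.86 in replicate 1.

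Nrf1 has 20 annotated transcripts, of which 10 had reads in both libraries. Nrf1-210 and Nrf1-211, which both carry 1509 coding bases, led with 32.6 ± 1.63% and 24.3 ± 3.25% of TPM (SD, n = 2). The most upstream start region held 81.4% of the gene's reads in replicate 2 and 84.0% in replicate 1. Its RefSeq window is the second most GC-rich of the 16, at 77.0%.

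Among the 71 transcripts, Tfam-201 had the widest gap between its share of reads and its share of TPM. Tfam-201, of 4167 bases and 729 coding bases, held 75.0% of reads in replicate 2 and 75.7% in replicate 1, but 31.1% of TPM in replicate 2 and 27.9% in replicate 1. Tfam-202, of 779 bases and 645 coding bases, had 342 reads in replicate 2 and 156 reads in replicate 1, with posterior SDs of 46.7 reads in replicate 2 and 70.0 reads in replicate 1. The short forms went the other way, Tfam-204 at 49.2 reads in replicate 2 and 167 reads in replicate 1, and Tfam-205 at 39.9 reads in replicate 2 and 115 reads in replicate 1. The Tfam window is set on a RefSeq start at 71238044. On the minus strand this lies downstream of the annotated start of Tfam-201 and Tfam-202 at 71238280. The window holds the single match to CCGGAAG among the 16, at position -47 from the RefSeq start. The match thus lies within the span of those transcripts, not before their start. Of all windows, 8.86% hold that motif.

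Counts were then compared between the libraries, replicate 2 over replicate 1, with an exact binomial test on scaled counts and Benjamini-Hochberg adjustment over all 17970 genes tested. The test covers counting error and compares these 2 libraries, not conditions. At an adjusted p under 0.05 and a log2 ratio of at least 1 in size, 0 of the 10 genes were called, where 282 genes (1.57%) were called in all, 127 higher and 155 lower in replicate 2. With no fold threshold 1 of the 10, Esrra, passed, beside 1799 genes (10.0%) in all, and 3 of the 10 (Esrra, Esrrb and Pparg) had an unadjusted p under 0.05, beside 4050 of all genes tested. A gene that misses the threshold is not shown to be equal in both libraries.

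Esrra was lower in replicate 2, with 991 reads in replicate 2 and 1231 reads in replicate 1 and a log2 ratio of -0.20 (95% interval -0.32 to -0.08; exact binomial test, adjusted p = 0.0182). Over the alternative scalings, filters and the M4 annotation its log2 ratio lay between -0.26 and -0.19, with adjusted p from 0.00315 to 0.0298. Summed red cell markers were 33500 TPM in replicate 2 and 37575 in replicate 1, with a median log2 ratio of -0.20 over 5 markers. The hepatocyte markers had a median log2 ratio of -2.34, with 7 of 7 called. The part of either cell type in the Esrra difference was not tested.

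The other 9 genes missed the adjusted threshold. Pparg had the log2 ratio farthest from 0, at -0.60 (95% interval -1.19 to -0.03; exact binomial test, adjusted p = 0.182), and Esrrb followed at -0.31 (-0.59 to -0.05; exact binomial test, adjusted p = 0.122). The intervals of Ppargc1a (-0.03 to 0.11), Esrrg (-0.02 to 0.14), Nrf1 (-0.04 to 0.16) and Tfam (-0.05 to 0.14) were narrow and included 0. Those of Ppara (-0.64 to 0.15) and Ppard (-0.57 to 0.48) were wide, with 97 and 61 reads in replicate 2.

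**Figure D3:**
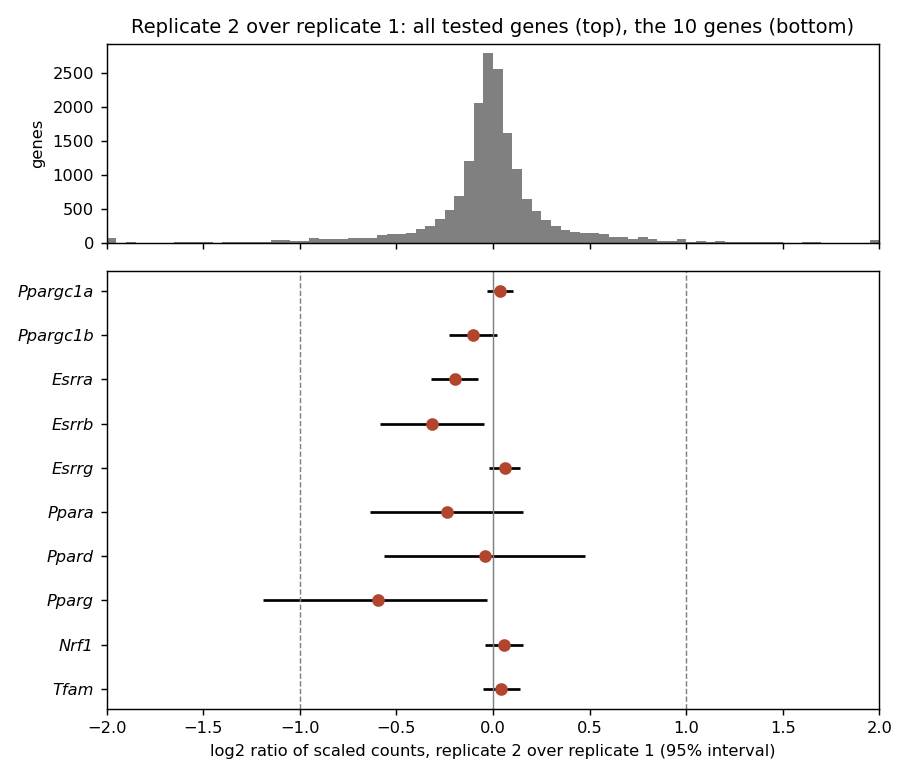
The log2 ratio of scaled counts, replicate 2 over replicate 1: a histogram of all 17970 tested genes above, with values past 2 in either direction in the outer bars, and the 10 genes below with their 95% intervals for counting error. Dashed lines mark a log2 ratio of 1 in either direction, and the points of all 10 genes lie between them, with Esrra the single gene that passed the adjusted threshold alone.

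The same test over 50364 transcripts called 6353 (12.6%), and of the 35 transcripts of the 10 genes that were tested it called 9; with no fold threshold it passed 13929 (27.7%) and 10 of the 35. This test takes an estimated count as if it were observed. Where the counts were also required to lie apart by more than 2 posterior SDs of each library, 1341 transcripts (2.66%) remained called, and 2 of the 35: Esrrg-204, with a log2 ratio of 1.18 (exact binomial test, adjusted p = 0.0316), and Ppara-201, with -3.08 (exact binomial test, adjusted p = 2.33e-11). Pparg-201, Tfam-202, Tfam-204 and Tfam-205 were among those called by counts alone. The requirement was added after the data were seen.

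The surrounding pathway was read from 10 lists with 144 genes, of which 135 reached 1 TPM in both libraries. Of 138 tested, 1 was called between the libraries by the fold rule, against 1.57% of all genes. The PGC1 partners were broadly present: all 12 coactivator partners were above 1 TPM around a median of 16.9 ± 1.82 TPM (SD, n = 2), led by the methyltransferase Prmt1 at 301 TPM, Smarcd3, a subunit of chromatin remodelling complexes, at 69.0 TPM and the methyltransferase Carm1 at 40.5 TPM. All 10 genes of the corepressor list were above 1 TPM, with a median of 44.3 TPM, led by the corepressors Ncor1 and Mybbp1a; the next, Trim63, is a muscle ubiquitin ligase and no transcriptional corepressor. Of 14 genes for enzymes that modify PGC1 proteins, 13 were detected, led by the kinase Akt1 at 142 TPM and the AMP-activated kinase subunits Prkag2 and Prkag1, and Camk4 was at 0.53 TPM in replicate 2 and 0.73 in replicate 1.

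Of 12 retinoid X receptors and other nuclear receptors that share their partners or sites, 9 were detected, with a median of 7.18 TPM. Nr2f6 (49.95 TPM), Nr1h2 (42.9 TPM) and Rxrb (28.0 TPM) were the highest, and each was above the summed PPAR level of 4.46 ± 1.14 TPM (SD, n = 2). Thrb and Nr0b1 were under 1 TPM in both libraries. All 12 genes of a list named for other nuclear respiratory regulators were detected. They were led by Nfe2l1, Nfe2l2 and Gabpa, a subunit of the GA-binding factor, at 35.7 TPM. A place in that list does not show that a gene, Nfe2l1 included, acts on respiratory genes. All 15 genes for replication and transcription of mitochondrial DNA were detected, with a median of 17.2 TPM, led by the single-strand binding protein Ssbp1 at 84.3 TPM, the protease Lonp1 at 52.1 TPM and Mterf3 at 43.2 TPM. Tfam lay below Ssbp1 and Lonp1.

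Of the genes known to respond to these receptors, all 16 genes of the ERR list were detected; their median was 329 ± 7.74 TPM (SD, n = 2), above each of the receptors, and they were led by the ATP synthase subunit Atp5b at 3793 TPM, the ADP/ATP carrier Slc25a4 at 1309 TPM and Cox5b at 837 TPM. Of 29 genes of the PPAR list, 24 were detected, with a median of 17.5 TPM. The highest were the fatty acid binding protein Fabp3 at 593 TPM in replicate 2 and 622 in replicate 1, and the beta-oxidation enzymes Acadl at 313 TPM and Hadhb at 245 TPM. The 5 genes of that list under 1 TPM were Ucp3 and Plin5, both known from oxidative muscle, and Fgf21, Cyp4a10 and Cyp4a14, known from liver, which were at 0 in both libraries. Many of these genes are also driven by other factors, and the lists were compiled from general knowledge.

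All 14 genes of mitochondrial import and dynamics were detected, with a median of 163 TPM, led by the chaperones Hspd1, Hspe1 and Hspa9. The 13 protein genes of the mitochondrial genome, which TFAM helps to transcribe, had a median of 1612 TPM in replicate 2 and 1856 in replicate 1, and mt-Atp6, mt-Atp8 and mt-Cytb were the highest. The single called gene of the pathway lists was mt-Nd4l, at 76.7 TPM in replicate 2 and 17.3 in replicate 1. It overlaps mt-Nd4, and the part of reads shared between them in this difference was not tested.

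**Figure D4:**
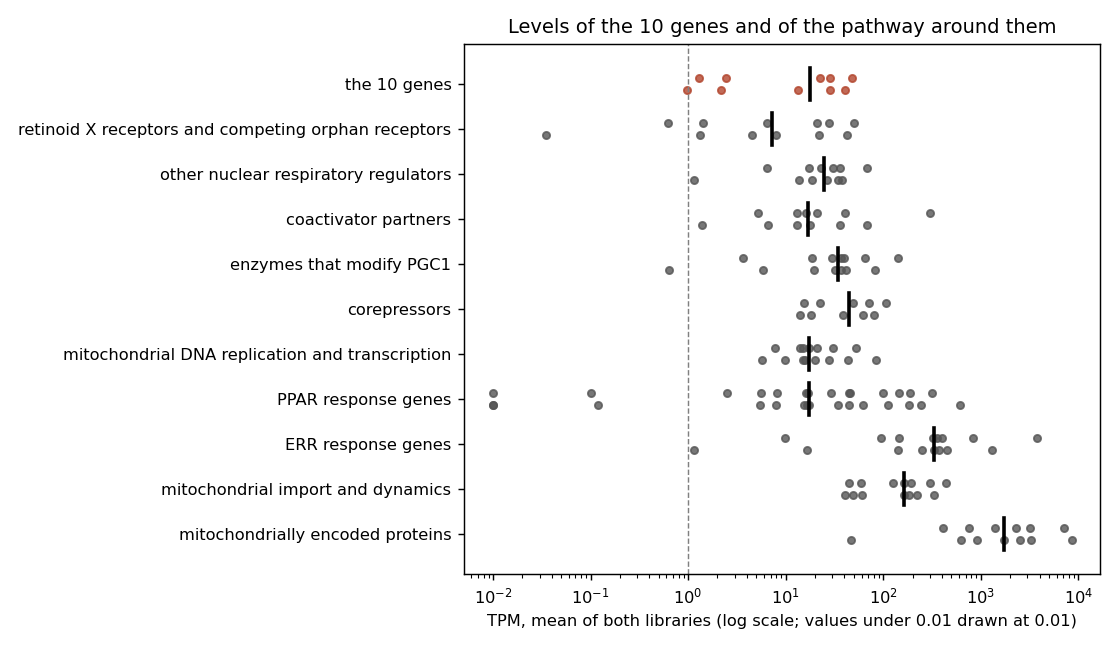
Mean TPM over both libraries on a log axis for the 10 genes (top row) and for the genes of the 10 pathway lists; each point is a gene, the vertical bars are medians, the dashed line is 1 TPM, and values under 0.01 are drawn at 0.01. The 10 genes lie between 0.965 and 48.3 TPM, while the median of the ERR list is 329 TPM and that of the mitochondrially encoded genes is 1734 TPM.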

How the data were processed

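PolyA RNA of E12.5 mouse heart was measured in 2 libraries of a single group. Per the file headers and the text deposited beside the tables, the authors quantified genes and transcripts on mm10 with GENCODE M21 and M4. Which aligner, counter and strand setting they used is not given in the sources used here. The authors deposited expected counts (estimated reads, rounded here to whole numbers for tests), TPM and FPKM (FPKM was not used in results), a posterior mean TPM, a posterior SD of each count, an interval of the TPM whose level is not stated, and for each transcript its percent share of the gene's TPM. The M21 tables were the main ones. Their 26248 rows with numeric identifiers, holding 0.000117% of estimated counts in replicate 2 and 0.000115% in replicate 1, and 96 spike-in rows stayed out of tests.

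Levels are TPM per library with mean ± SD (n = 2). Read shares were computed from expected counts. Libraries were compared by a two-sided exact binomial test (scipy 1.17.1) on counts scaled by TMM factors (edgeR 4.0.16, R 4.3.3), for features with a summed count of at least 20, with Benjamini-Hochberg adjustment over all of them; log2 ratios used 0.5 added to each scaled count. With 1 library on each side the edgeR quasi-likelihood test could not be fitted. Reads carry no molecular identifiers here, so intervals cover counting error only. On simulated counts for 17963 genes with 200 changed by 4 times, 199 changed genes and 0 unchanged genes were called. The simulated counts had sampling noise alone, and the changed genes were drawn from those with higher counts. The simulation therefore does not show how the test fares on these libraries, which differed by more than sampling noise, or on genes with few reads.

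All 10 genes are named, and of each list the 3 highest, up to 3 under 1 TPM in both libraries and any called gene. Transcripts were to be named at 5% or more of a gene's TPM. Some that meet this were left out, in Esrra, Esrrb, Ppara, Ppard and Nrf1. Cyp4a14, Fgf21, Trmt112 and a few lower transcripts fall outside these rules and were named after their values were seen. The 10 genes and the lists were chosen with earlier results of these data known. Promoter windows are RefSeq's (GRCm38.p6), matched by symbol for 9 of the 10 genes; the motifs given were settled after the windows had been searched; transcripts are those of GENCODE M21. Alternatives were the M4 annotation, DESeq2 1.42.0 size factors or total counts, other count and TPM thresholds, posterior mean TPM, TPM over nuclear genes, read shares, and each library alone.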

Additional observations from a re-analysis of the deposited data

How the results depend on the processing

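The count of genes at 1 TPM or more in both libraries, 9 of 10, was 6 at a threshold of 5 TPM and 10 at 0.5 TPM or by posterior mean TPM. None of the 10 was called between the libraries under either other scaling, either other count filter or the M4 annotation, and 1 (Esrra) passed with no fold threshold. Over all genes, 282 calls became 60 at a summed count of at least 100 and 1799 with no fold threshold. Over transcripts, 6353 calls became 13929 with no fold threshold and 1341 with posterior ranges apart. With the M4 annotation the log2 ratio was 3.04 for Esrra over Esrrb, -1.35 for Ppard over Ppara and -0.58 for Ppard over Pparg; with posterior mean TPM it was -1.06 for Ppard over Ppara and -0.67 for Ppard over Pparg. The share of Ppargc1a-201 was 66.7% with M4, and that of Esrra-201 was 89.1%. As shares of reads, Ppargc1a-201 held 46.6%, Ppargc1b-202 99.6%, Esrrg-201 92.9% and Nrf1-210 41.3%, and Tfam-202 held 13.9%, against 33.4% of TPM. The leading transcript changed with that measure for Tfam, to Tfam-201 at 75.4% of reads, and for Ppara, to Ppara-202 at 38.5%. The cause of the M4 differences was not tested, while read shares leave out the division by length. With 2 libraries, each value lies within 1 SD of the mean by construction, so each library alone is no test of stability. The share of Ppara-201 was 9.10% in replicate 2 and 54.3% in replicate 1, that of Tfam-202 was 48.2% in replicate 2 and 18.6% in replicate 1, and that of Pparg-204 was 56.7% in replicate 2 and 24.6% in replicate 1, below Pparg-201 at 51.1% in replicate 1. None of the log2 ratios given for pairs of genes changed sign under these alternatives. Esrrb and Ppara were not among these pairs, and posterior mean TPM reversed their order. Pparg-204 has no value with M4. TPM over nuclear genes alone raised the level of Ppargc1a to 46.3 TPM and that of Tfam to 54.6 TPM. No paired analysis was possible because there is a single group. Leaving out a library leaves no comparison between libraries. The depth limits the PPAR genes most, with 42 to 124 reads each.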
